A study of Mus musculus with 10 samples.

Results

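The genes described here encode the pore-forming and auxiliary subunits of voltage-gated sodium and calcium channels and of potassium channels. They were chosen by name: every probe set with a single gene symbol that starts with Kcn, Cacna, Cacnb or Cacng, or with Scn followed by a digit, with Kcnj1 and the epithelial sodium channel (Scnn) genes left out. This gave 250 probe sets of 118 genes, out of 18193 named genes on the array. Of the 118 genes, 115 encode proteins and 3 are noncoding transcripts of the same loci (Kcnq1ot1, Kcnmb4os1 and Kcnmb4os2). A gene with several probe sets was represented by the one with the highest mean over all arrays. Further probe sets are given for some genes only.

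RNA came from whole urogenital systems of mouse embryos at embryonic day 15.5, in pools of RNA that drew on 1 or 2 urogenital systems for each labelling, and was hybridised to Affymetrix arrays. The first group, 5 pools labelled Wnt9bcneo/cneo, had 2 copies of the cneo allele of Wnt9b and is called homozygous. The second group, 5 pools labelled Wnt9bcneo/+, is called control; its titles call it wild type, so whether the controls carry 1 cneo allele is not settled. Wnt9b encodes a secreted Wnt protein made by the ureteric bud epithelium, and the labels do not say how the allele alters it. The question is which channel transcripts differ between the genotypes. Values are log2 of the deposited intensity, with intensities under 16 set to 16, so that 4.00 is the floor. The number of arrays limits the precision.

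Voltage-gated sodium channels carry the rising phase of the action potential, calcium channels couple depolarisation to transmitter release and muscle contraction, and voltage-gated potassium channels end the impulse. Inward rectifier and K2P leak channels set the resting potential, in excitable cells as well as in transporting epithelia, where potassium channels recycle the ion that the sodium pump brings in. In an embryonic urogenital system such channels can come from sympathetic ganglia and chromaffin cells, from smooth and skeletal muscle, from the adrenal cortex and from the tubules of the kidney. In whole tissue, fewer cells of a type and less RNA per cell cannot be told apart.

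The tissue markers of the label were present in every pool. The mean of 9 measured urogenital markers (Wt1, Six2, Pax8, Ret, Upk1b and others) lay between 8.23 and 9.07 in homozygous pools and between 8.83 and 9.29 in control pools, and none of the 9 was at the floor on any array. Wnt9b had a mean of 6.83 ± 0.82 in homozygous pools and 7.05 ± 0.11 in control pools (SD, n = 5 each), a difference of -0.23 (limma, adjusted p = 0.803), and the labels do not say whether its probe set lies in the altered part. Xist was above 10 on the log2 scale in homozygous pools 3, 4 and 5 alone, at 13.8 to 14.3 against 5.13 to 6.07 in all other pools. No control pool was high, so the Xist level is partly tied to genotype. The actin 3' to middle probe set ratio, which rises as RNA degrades, reached 97.7 for homozygous pool 5 and 94.8 for control pool 1, with at most 33.1 for the other 8 pools. The share of probe sets at the floor was 19.9% to 21.1% in the homozygous group and 22.2% to 23.0% in the control group, and its part in the results below was not tested.

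Most channel genes were measurable: 79 of the 118 lay above the floor on all 10 arrays, 37 were at the floor on some, and Kcnj2 and Kcnn3 were at the floor on all 10. The difference between homozygous and control pools was positive for 82 genes, negative for 34 and 0 for the other two. Its median was 0.24 over the 118 channel genes, compared with 0.00 over all 18193 genes. Among the 79 genes above the floor throughout, the median was 0.27, against -0.01 over the 13407 such genes of the array.

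Genes are said to rise or fall if they passed the threshold (limma, Benjamini-Hochberg adjusted p under 0.05). The sodium channel gene Scn2a, the potassium channel genes Kcnc4 and Kcnh2 and the receptor regulator gene Cacng5 rose in homozygous pools. No channel gene passed the threshold as lower. These 4 genes that rose are 3.39% of the members, whereas 0.967% of all genes passed the same threshold, 0.539% of all genes higher and 0.429% lower. Of the members, 30 were higher and 5 lower at an unadjusted p under 0.05, which is 25.4% and 4.24% of the 118, against 9.83% and 5.89% of all genes. In 6 genes every homozygous pool lay above every control pool (Scn2a, Kcnc4, Kcnh2, Cacng5, Scn3b and Cacna2d3), 5.08% of the members against 2.61% of all genes. In 1 gene, Kcnj15, every homozygous pool lay below every control pool, 0.847% of the members against 2.1% of all genes.

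**Figure D1:**
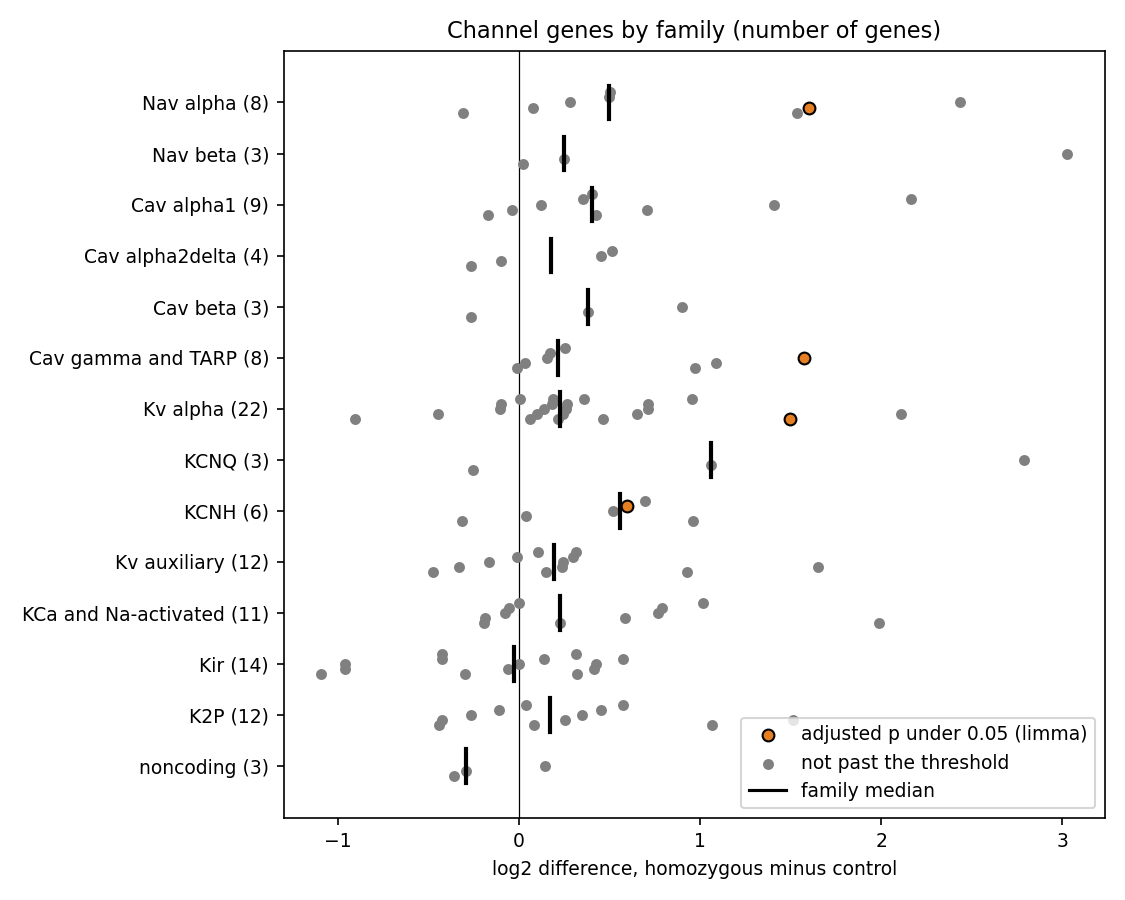
Log2 difference between homozygous and control pools (horizontal axis, homozygous minus control) for each of the 118 channel genes, with one row per family and the number of genes in brackets. Each point is a gene, the orange points are the 4 genes past the threshold, and the short vertical lines are family medians, which run from -0.29 (noncoding) to 1.06 (KCNQ).

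The count of 4 depended on single pools. It was 0 without homozygous pool 1, 3 or 5 and without control pool 3, 4 or 5, 1 without control pool 1, 3 without homozygous pool 4, 5 without homozygous pool 2 and 12 without control pool 2. The last 3 counts are 2.54%, 4.24% and 10.2% of the members, against 0.368%, 1.37% and 2.28% of all genes in the same fits. In the fits with a count of 0 or 1, only 0.0165% to 0.0715% of all genes passed. Without control pool 1 the shares were 0.847% of the members and 0.0715% of all genes. Without both arrays of high actin ratio 0 passed, with 30 members at an unadjusted p under 0.05 in limma; the differences of the 4 genes were then 1.61 (Scn2a), 1.57 (Kcnc4), 0.60 (Kcnh2) and 1.63 (Cacng5), compared with 1.60, 1.50, 0.59 and 1.57 over all pools. Without the 3 pools of high Xist level, where 2 homozygous pools remain, 0 passed and 20 were at an unadjusted p under 0.05 in limma. The differences were then 1.54 (Scn2a), 1.67 (Kcnc4), 0.63 (Kcnh2) and 1.51 (Cacng5). In both fits the share of all genes at that unadjusted p was not counted.

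The stretches of DNA upstream of the transcription start are shown for the 4 genes that rose and for Kcnj15, because these are the members past the threshold and the one member lower in every homozygous pool. Each holds the 250 bases before a start in RefSeq (GRCm38.p6), 5′ to 3′ on the strand of the gene, with matches to the GC box (GGGCGG) and the TATA box (TATAAA) in capitals on either strand. For Scn2a and Cacng5, which have several starts in the table, the window shown was chosen because it holds a match; for Scn2a, Kcnc4 and Kcnh2 the window lies inside the outer bounds of the gene.
Scn2a, chr2:65668436-65668685, plus strand: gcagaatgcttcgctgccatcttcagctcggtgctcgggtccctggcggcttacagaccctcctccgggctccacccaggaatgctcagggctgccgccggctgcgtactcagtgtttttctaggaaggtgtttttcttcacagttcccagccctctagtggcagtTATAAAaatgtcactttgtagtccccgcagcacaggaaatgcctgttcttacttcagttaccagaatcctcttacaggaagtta
Kcnc4, chr3:107458899-107459148, minus strand: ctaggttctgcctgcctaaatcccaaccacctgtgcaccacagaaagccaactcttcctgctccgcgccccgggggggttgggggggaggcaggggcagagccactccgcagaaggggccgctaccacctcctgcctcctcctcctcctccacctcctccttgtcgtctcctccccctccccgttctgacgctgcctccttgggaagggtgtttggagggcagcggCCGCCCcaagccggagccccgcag
Kcnh2, chr5:24329592-24329841, minus strand: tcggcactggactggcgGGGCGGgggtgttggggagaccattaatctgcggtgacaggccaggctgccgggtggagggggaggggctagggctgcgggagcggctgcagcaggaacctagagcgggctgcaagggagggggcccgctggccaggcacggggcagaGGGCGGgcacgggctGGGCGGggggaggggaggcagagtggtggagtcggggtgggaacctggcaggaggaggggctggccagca
Cacng5, chr11:107915056-107915305, minus strand: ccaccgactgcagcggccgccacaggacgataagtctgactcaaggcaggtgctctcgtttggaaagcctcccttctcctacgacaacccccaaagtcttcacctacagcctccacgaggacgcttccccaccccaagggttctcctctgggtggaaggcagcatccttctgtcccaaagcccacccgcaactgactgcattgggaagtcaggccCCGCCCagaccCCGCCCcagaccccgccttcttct
Kcnj15, chr16:95257308-95257557, plus strand: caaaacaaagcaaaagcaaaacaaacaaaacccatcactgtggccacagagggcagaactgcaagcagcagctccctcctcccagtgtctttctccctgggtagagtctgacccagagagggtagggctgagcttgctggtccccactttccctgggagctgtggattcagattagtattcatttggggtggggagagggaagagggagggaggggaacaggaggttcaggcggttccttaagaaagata

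A GC box was found in the windows of Kcnc4 and Kcnh2 and in 1 of 2 windows of Cacng5; the other Cacng5 window had none and a GC content of 56.8%. A GC box was in 32.7% of the 32851 windows of this length in the table, against 43.2% of the 125 windows of member genes (90 of 118 genes had one). A TATA box was found in 1 of 2 windows of Scn2a, the other having none and a GC content of 29.6%. A TATA box was in 12.4% of all windows and 4.0% of member windows. The left part of RE1 (CAGCACC), the element bound by the neuronal gene repressor REST, was in none of these 5 windows and in 5.73% of all windows and 4.8% of member windows. The GC content was 73.6% in the Kcnh2 window, 68.0% in that of Kcnc4 and 62.0% in that of Cacng5, while the Scn2a and Kcnj15 windows each had 53.2% and the median over all windows was 52.4%. A match of letters describes the window and does not show that a factor binds there.

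Among the pore-forming sodium channel subunits, Scn2a (GRCm38.p6, chromosome 2, 65620764 to 65767447), a sodium channel of axons in the nervous system, stood at 8.33, 7.55, 8.35, 7.72 and 8.04 in homozygous pools 1 to 5, against 6.49, 6.95, 6.02, 6.12 and 6.42 in control pools 1 to 5. The groups did not overlap, and the lowest homozygous value, in pool 2, was above the highest control value, in pool 2 of that group. Scn2a rose 3.03-fold, a log2 difference of 1.60 ± 0.23 (SE; limma, adjusted p = 0.0358). A second, dimmer probe set of Scn2a differed by 1.73 with no overlap between groups, another by 0.42, and the last was at the floor on all 10 arrays.

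The remaining subunits of this family did not pass. Scn3a, the sodium channel typical of embryonic neurons, was at 8.49, 7.98, 9.36, 8.04 and 8.30 in homozygous pools, against 4.93, 8.17, 5.11, 6.48 and 5.29 in control pools. The homozygous pools lay close together, whereas the control pools spread widely, with control pool 2 inside the homozygous range. The difference was 2.44 ± 0.62 (SE, limma, adjusted p = 0.0987), and that of the second Scn3a probe set, at the floor on 5 arrays, was 0.08. Scn9a, known from sensory and sympathetic neurons, differed by 1.54 ± 0.43 (limma, adjusted p = 0.123), with values of 6.60 to 8.38 in homozygous pools and 4.86 to 6.63 in control pools. Scn8a, a widely used neuronal sodium channel, had the smallest difference of those above the floor throughout, at -0.31 (limma, adjusted p = 0.406), with means of 7.86 ± 0.33 in homozygous pools and 8.17 ± 0.12 in control pools (SD, n = 5 each). Over the 8 genes of the family the median was 0.50 and 7 differences were positive.

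The beta subunit gene Scn3b, whose product modulates sodium channel gating, had the largest difference of all 118 members, 3.03 ± 1.01 (SE; limma, adjusted p = 0.182). It stood at 11.60, 11.11, 11.94, 10.77 and 10.94 in homozygous pools, against 5.67, 9.88, 5.82, 10.75 and 9.10 in control pools. The groups met without overlap, since homozygous pool 4 was barely above control pool 4, and control pools 1 and 3 were far below the rest. The second Scn3b probe set, at the floor on 5 arrays, differed by 0.27. Scn2b and Scn4b, the other beta subunits measured, differed by 0.25 and 0.02 (limma, adjusted p = 0.449 and 1.00).

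**Figure D2:**
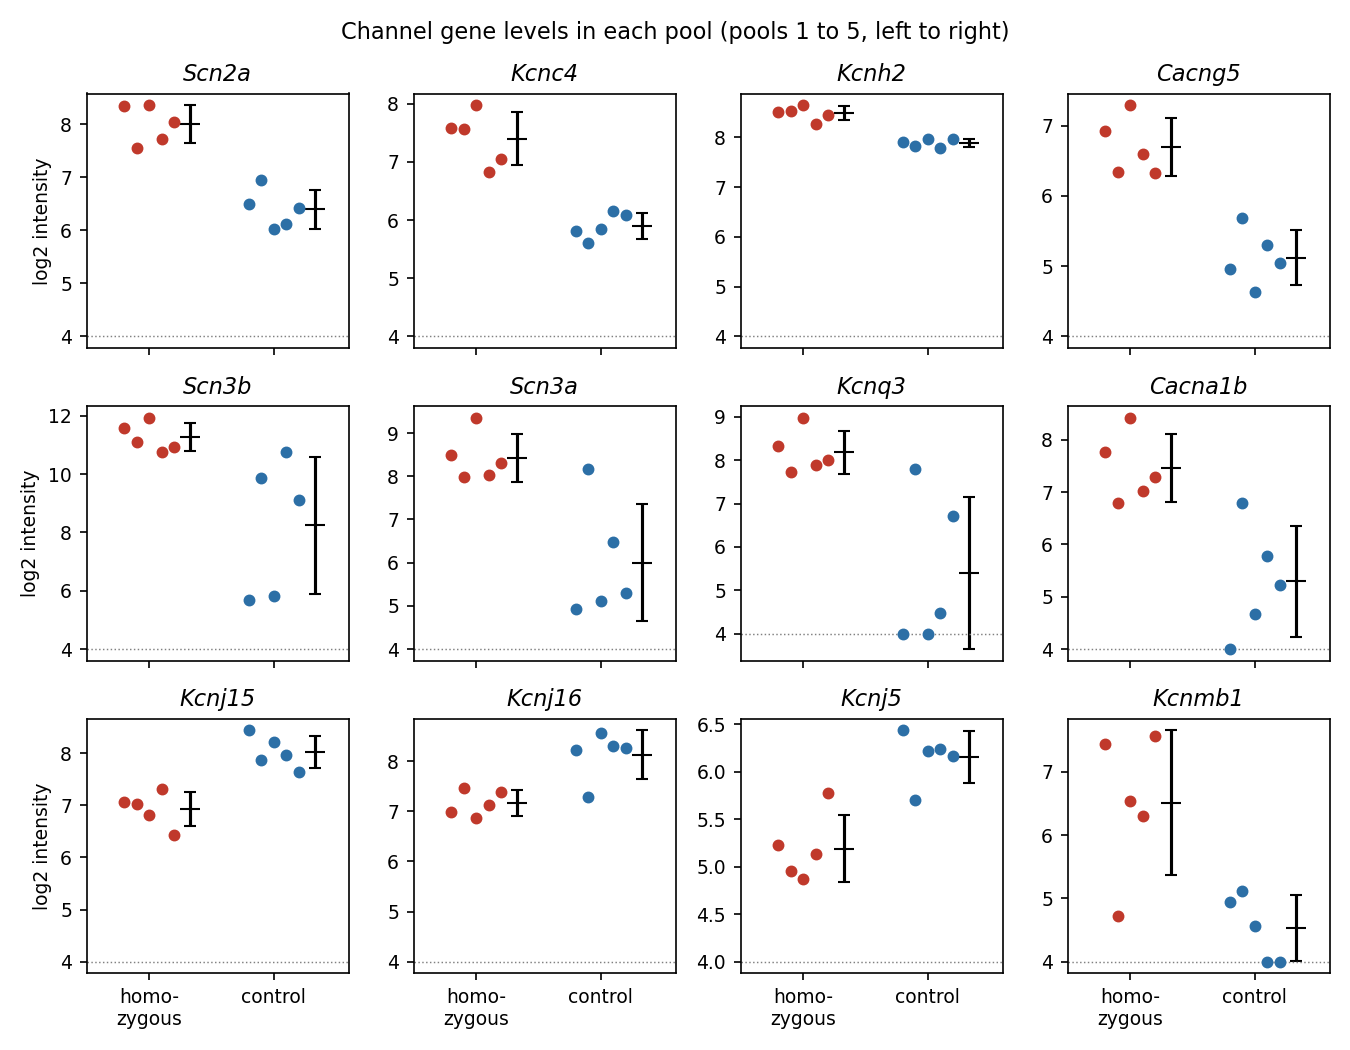
Log2 intensity (vertical axis, a separate range for each gene) of 12 channel genes in the 5 homozygous pools (red, left) and the 5 control pools (blue, right), with the mean and SD of each group in black and the floor of 4.00 dotted. The control pools of Scn2a, Kcnc4, Kcnh2 and Cacng5 lie close together and below all homozygous pools, those of Scn3b, Scn3a, Kcnq3 and Cacna1b spread widely, and those of Kcnj15 lie above all homozygous pools.

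No pore-forming calcium channel subunit passed the threshold. Cacna1b, the N-type channel that triggers transmitter release at sympathetic terminals, was at 7.77, 6.78, 8.42, 7.02 and 7.28 in homozygous pools, against 4.00, 6.79, 4.67, 5.78 and 5.22 in control pools. Control pool 2 again reached the homozygous range, and control pool 1 was at the floor, so that the difference of 2.16 ± 0.53 (SE; limma, adjusted p = 0.0903) is understated. Of its other probe sets, one differed by 2.07, one by 0.84 and one by -0.05. The R-type channel gene Cacna1e differed by 1.41 (limma, adjusted p = 0.226), and its highest value of all, 6.86, was in control pool 2. The T-type channel genes Cacna1h and Cacna1g, which open near the resting potential, differed by 0.40 and 0.12 (limma, adjusted p = 0.365 and 0.816). The median over the 9 genes of this family was 0.40.

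Auxiliary calcium channel subunits bring the pore to the membrane and tune its gating. Of the alpha2delta subunits, Cacna2d3 was at 7.87, 7.99, 8.15, 8.23 and 8.19 in homozygous pools, against 7.51, 7.84, 7.64, 7.58 and 7.30 in control pools. The groups did not overlap but came within a narrow margin of each other, and the difference was 0.51 ± 0.13 (SE; limma, adjusted p = 0.0952). Cacna2d1 differed by 0.45 (limma, adjusted p = 0.166), Cacna2d2 by -0.10 (adjusted p = 0.822) and Cacna2d4, at the floor on 6 of the 10 arrays, by -0.27 (adjusted p = 0.621). The beta subunit gene Cacnb2 differed by 0.90 ± 0.27 (SE; limma, adjusted p = 0.152), with 6.71 to 8.19 in homozygous pools and 6.07 to 6.79 in control pools. Cacnb1, the beta subunit of skeletal muscle, and Cacnb4 differed by 0.38 and -0.27 (limma, adjusted p = 0.767 and 0.649).

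Cacng5 (GRCm38.p6, chromosome 11, 107874604 to 107915055) belongs by name to the gamma subunits, but its product is known as a regulator of AMPA-type glutamate receptors. It was at 6.92, 6.34, 7.29, 6.60 and 6.33 in homozygous pools, against 4.96, 5.68, 4.63, 5.30 and 5.04 in control pools. The groups did not overlap, and the nearest pair was homozygous pool 5 and control pool 2. Cacng5 rose 2.98-fold, a log2 difference of 1.57 ± 0.25 (SE; limma, adjusted p = 0.0364), while its second probe set, at the floor on 9 arrays, differed by 0.15. Another regulator of these receptors, Cacng2, differed by 1.09 (limma, adjusted p = 0.202), and Cacng4 by 0.17 (adjusted p = 0.899). Cacng1, the gamma subunit of the skeletal muscle calcium channel, differed by 0.97 (limma, adjusted p = 0.614) and was highest of all in control pool 4, at 7.75, the pool in which the mean of the skeletal muscle markers was also highest, at 11.64. The median over the 8 genes was 0.21.

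Of 22 pore-forming or silent subunits of classical voltage-gated potassium channels, Kcnc4 rose and 21 did not pass. Kcnc4 (GRCm38.p6, chromosome 3, 107438298 to 107460287) encodes a Shaw-type channel that repolarises nerve and muscle fibres quickly. It was at 7.58, 7.57, 7.97, 6.82 and 7.04 in homozygous pools, against 5.82, 5.60, 5.84, 6.15 and 6.09 in control pools. The groups did not overlap, and control pool 2 was here the lowest of its group. Kcnc4 rose 2.82-fold, a log2 difference of 1.50 ± 0.23 (SE; limma, adjusted p = 0.0364). Its probe set is of the kind that matches several transcripts, which may include those of other genes, and its other probe set stayed at the floor in all 10 pools.

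Kcnc2, a close relative of Kcnc4, had the opposite sign, at 7.42, 7.73, 7.20, 8.32 and 7.41 in homozygous pools, against 9.05, 8.16, 8.80, 8.29 and 8.31 in control pools. Only homozygous pool 4 reached into the control range, and the difference of -0.91 ± 0.25 (SE) did not pass (limma, adjusted p = 0.123). The silent subunit gene Kcng2 differed by 0.95 (limma, adjusted p = 0.177), with 3 control pools at the floor. Kcnv2, another silent subunit, differed by -0.11 (adjusted p = 0.820). The median over the 22 genes was 0.23, and 18 differences were positive.

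Kcnh2 (GRCm38.p6, chromosome 5, 24319589 to 24351684) encodes the ERG potassium channel, known for repolarising heart muscle and present in neurons, chromaffin cells and smooth muscle. It was at 8.51, 8.53, 8.65, 8.27 and 8.46 in homozygous pools, against 7.91, 7.82, 7.96, 7.79 and 7.97 in control pools. Both groups were tight and lay apart. Kcnh2 rose 1.51-fold, a log2 difference of 0.59 ± 0.09 (SE; limma, adjusted p = 0.0364), the smallest change among the 4 genes that passed. It had 1 probe set. With quantile normalisation between arrays the difference was 0.64 with an adjusted p of 0.0536 in limma, with log2 of the intensity plus 16 in place of the floor it was 0.56 with an adjusted p of 0.0601. Kcnh2 passed in 7 of 17 other ways of processing, and in 3 of the 10 fits that left out a pool. Of the other ether-a-go-go type genes, Kcnh1 differed by 0.96, Kcnh3 by 0.69 and Kcnh8 by 0.52 (limma, adjusted p = 0.251, 0.302 and 0.344), and the median over 6 genes was 0.56.

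The KCNQ genes include the subunits of the M-current, which restrains repetitive firing in sympathetic neurons. One of these, Kcnq3, was at 8.33, 7.72, 8.98, 7.89 and 8.00 in homozygous pools, against 4.00, 7.79, 4.00, 4.48 and 6.70 in control pools. Control pool 2 was inside the homozygous range and control pools 1 and 3 were at the floor, which understates the difference of 2.79 ± 0.77 (SE; limma, adjusted p = 0.119). The second Kcnq3 probe set differed by 1.03 with no overlap between groups. Kcnq5, which also forms M-type channels, differed by 1.06 (limma, adjusted p = 0.271), and its other probe sets by 2.07 and 1.44. Kcnq1, the epithelial and cardiac member of the family, differed by -0.25 (limma, adjusted p = 0.666).

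None of the 12 genes for cytoplasmic beta subunits, KChIPs and KCNE subunits passed. The KChIP gene Kcnip4 was at 6.31, 5.44, 7.35, 5.82 and 5.77 in homozygous pools, against 4.00, 6.04, 4.40, 4.00 and 4.00 in control pools. Control pool 2 was alone among controls in reaching the homozygous range, and the difference was 1.65 ± 0.49 (SE; limma, adjusted p = 0.141). Kcnip3, a calcium sensor of the same group, differed by 0.93 (limma, adjusted p = 0.124). Kcne4 and the beta subunit gene Kcnab2 differed by 0.32 and 0.11 (limma, adjusted p = 0.467 and 0.855), and the family median was 0.19.

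Among 11 genes of calcium- and sodium-activated potassium channels, Kcnmb1, the beta subunit of the large-conductance channel in smooth muscle, was at 7.45, 4.71, 6.54, 6.30 and 7.56 in homozygous pools, against 4.95, 5.12, 4.56, 4.00 and 4.00 in control pools. Homozygous pool 2 lay within the control range and the other 4 above it, and the difference was 1.99 ± 0.53 (SE; limma, adjusted p = 0.111). The second Kcnmb1 probe set, above the floor in every pool, differed by 1.07 with no overlap, its lowest homozygous value being 5.35 in pool 2 and its highest control value 5.18 in pool 4. The mean of 8 smooth muscle markers was also lowest in homozygous pool 2, at 8.33, with 9.48 to 11.03 in the other 4, while control pools ranged from 7.45 to 9.67. The order of the other 4 was not shared: the marker mean was highest in pool 1 at 11.03, and was 9.48 in pool 5, where Kcnmb1 was highest. The part of the smooth muscle markers in the result was not tested. Kcnma1, the pore of that channel, was at 8.06, 8.08, 8.82, 8.06 and 8.49 in homozygous pools, against 6.55, 8.20, 7.10, 7.04 and 7.55 in control pools, a difference of 1.01 ± 0.31 (SE; limma, adjusted p = 0.150). All 5 probe sets of Kcnma1 had positive differences, from 0.27 to 1.19. The sodium-activated channel gene Kcnt1 differed by 0.77 (limma, adjusted p = 0.177) and the beta subunit gene Kcnmb2 by -0.06 (adjusted p = 0.975). The second Kcnmb2 probe set, above the floor in every pool, differed by 0.88.

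The inward rectifiers departed from this pattern, with a median of -0.03 over 14 genes and 7 negative differences. Kcnj15 (GRCm38.p6, chromosome 16, 95257558 to 95300260), an inward rectifier of kidney and other epithelia, was at 7.07, 7.02, 6.82, 7.31 and 6.43 in homozygous pools, against 8.44, 7.87, 8.21, 7.97 and 7.63 in control pools. The groups did not overlap, and the difference was -1.09 ± 0.21 (SE), just short of the threshold (limma, adjusted p = 0.0527). Kcnj15 passed in 8 of 17 other ways of processing, and in none of the 10 fits that left out a pool. A second Kcnj15 probe set differed by -1.29 with no overlap, and the third, at the floor on 7 arrays, by -0.12.

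Kcnj16, a subunit of the basolateral potassium channel of kidney tubules, was at 6.99, 7.47, 6.87, 7.13 and 7.38 in homozygous pools, against 8.23, 7.29, 8.56, 8.31 and 8.27 in control pools. Control pool 2 alone lay inside the homozygous range. The difference was -0.96 ± 0.25 (SE; limma, adjusted p = 0.0987), and the second Kcnj16 probe set differed by -1.04 with no overlap. Kcnj5, a G protein-gated channel known from the atrium and the adrenal cortex, was at 5.23, 4.95, 4.87, 5.13 and 5.77 in homozygous pools, against 6.44, 5.70, 6.22, 6.24 and 6.16 in control pools, a difference of -0.96 ± 0.20 (SE; limma, adjusted p = 0.0605). The second Kcnj5 probe set, at the floor on 5 arrays, differed by -0.08. The adrenal cortex markers had positive differences in 8 of 8 genes, among them Nr0b1 with 1.49, Hsd3b1 with 4.08 and Nr5a1 with 2.55 (limma, adjusted p = 0.236, 0.364 and 0.376), with list means of 7.96 to 11.13 in homozygous pools and 4.93 to 10.50 in control pools. Kcnj3, which forms channels with Kcnj5 in the atrium, differed by 0.14 (limma, adjusted p = 0.851), and the muscle rectifier gene Kcnj12 by 0.57 (adjusted p = 0.137). Kcnj1, the secretory rectifier of the distal nephron that the selection left out, was lower in the same way, with a difference of -1.29 (limma, adjusted p = 0.0535).

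No K2P leak channel gene passed. Kcnk3, an acid-sensitive leak channel of neurons and the adrenal cortex, was at 8.06, 9.23, 8.54, 6.94 and 8.52 in homozygous pools, against 4.57, 6.80, 7.22, 6.92 and 8.24 in control pools. The groups overlapped, with a difference of 1.51 ± 0.67 (SE; limma, adjusted p = 0.322). The other Kcnk3 probe sets, at the floor on 3 and 9 arrays, differed by -0.49 and -0.09. The stretch-sensitive channel gene Kcnk10 differed by 1.07 (limma, adjusted p = 0.195). Kcnk5, an alkaline-activated channel of the proximal tubule, differed by -0.44 (limma, adjusted p = 0.260), and Kcnk6 by 0.25 (adjusted p = 0.498). The median over 12 genes was 0.17.

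The noncoding transcripts did not pass either. Kcnq1ot1, an imprinted RNA made antisense to Kcnq1, differed by -0.36 (limma, adjusted p = 0.578), and all 6 of its probe sets had negative differences. Kcnmb4os2 differed by -0.29 and Kcnmb4os1, at the floor on 9 arrays, by 0.14 (limma, adjusted p = 0.663 for each).

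The channel genes were also grouped into lists by tissue, chosen with earlier results of these data known. Kcnh2, known also from heart muscle, was listed as neuronal, and Kcnc4, known also from nerve, as muscle. Differences were mostly positive in the neuronal and muscle lists and mostly negative in the kidney list. Of 38 measured neuronal channel genes, Scn2a and Kcnh2 rose and 36 did not pass, with 32 positive and 5 negative differences and a median of 0.45, compared with 0.00 over all genes. Of 15 muscle channel genes Kcnc4 rose and 14 did not pass, with 12 positive and 2 negative differences and a median of 0.45. Of 12 kidney epithelial channel genes none passed, 10 differences were negative and 2 positive, and the median was -0.28. The mean of the kidney list was 6.39, 6.60, 6.31, 6.42 and 6.67 in homozygous pools, against 6.79, 6.80, 6.77, 6.80 and 6.68 in control pools. The proximal tubule markers ran the same way, with list means of 7.78 to 8.39 in homozygous pools and 9.06 to 9.52 in control pools, and 5 of 8 measured markers fell, among them Hnf4a by 1.51, Cubn by 1.45 and Slc34a1 by 1.17 on the log2 scale; their part in the channel values was not tested.

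**Figure D3:**
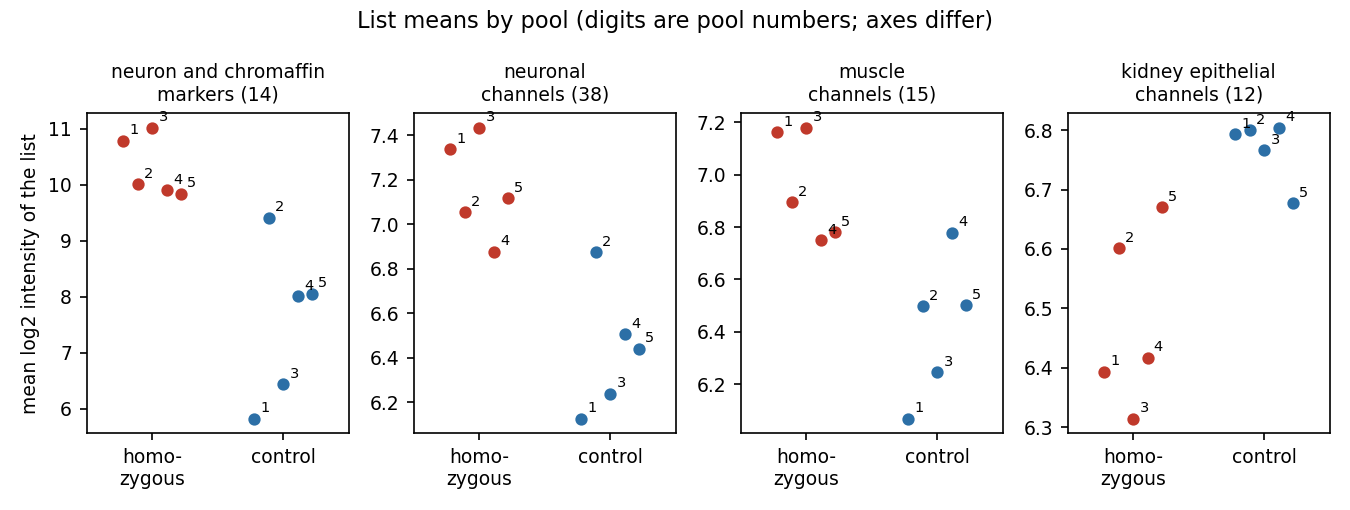
Mean log2 intensity (vertical axis, a separate range in each panel) of the neuron and chromaffin markers and of the neuronal, muscle and kidney epithelial channel lists in each homozygous pool (red, left) and control pool (blue, right); digits are pool numbers and brackets give the number of genes. Control pool 2 has the highest control mean in both neuronal panels (9.41 for the markers, 6.87 for the channels), and control pool 1 the lowest.

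Neuron and chromaffin markers were higher in homozygous pools beside the neuronal channel genes. Their list mean was 10.79, 10.01, 11.02, 9.90 and 9.84 in homozygous pools, against 5.82, 9.41, 6.44, 8.01 and 8.05 in control pools, and all 14 measured markers had positive differences, with a median of 2.75. None of the 14 passed by itself; Phox2a, which specifies noradrenergic neurons, had a difference of 3.07 and the noradrenaline and catecholamine enzyme genes Dbh and Th by 3.34 and 3.76 (limma, adjusted p = 0.0558, 0.0602 and 0.0806). In control pool 1, Tubb3, Prph and Isl1 were at the floor of 4.00, and Elavl3 was at the floor in control pool 3. The neuronal channel list had means of 7.34, 7.05, 7.43, 6.88 and 7.12 in homozygous pools, against 6.13, 6.87, 6.24, 6.51 and 6.44 in control pools. In both lists homozygous pool 3 was highest and pool 1 next, and among the controls pool 2 was highest and pools 1 and 3 were lowest. Homozygous pool 5, lowest for the markers, was in the middle of its group for the channels.

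Markers of other cell types also differed. Of 6 measured Schwann and satellite glia markers 5 had positive differences, with a median of 0.75. The glia list mean was 8.36 to 9.05 in homozygous pools, highest in pool 3, against 6.96 to 8.78 in control pools, highest in pool 2 and lowest in pools 1 and 3. Fabp7, Foxd3 and Sox10 differed by 2.09, 0.98 and 0.95 (limma, adjusted p = 0.10, 0.306 and 0.498). All 11 skeletal muscle markers had positive differences, with a median of 2.12, among them Actc1 with 2.12, Acta1 with 3.13 and Myh3 with 3.00 (limma, adjusted p = 0.296, 0.384 and 0.451). All 8 smooth muscle markers did too, with a median of 1.81, among them Acta2 with 0.84, Cnn1 with 2.49 and Lmod1 with 1.77 (limma, adjusted p = 0.178, 0.188 and 0.239). The part of these cell types in the channel values was not tested.

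Control pool 2 was the highest control pool for 15 of the 38 neuronal channel genes (39.5%), compared with 18.1% of all genes, and control pool 1 was the lowest for 13 (34.2%), compared with 28.3% of all genes. The SD was larger in control than in homozygous pools for 63 of the 118 channel genes (53.4%), against 41.7% of all genes.

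**Figure D4:**
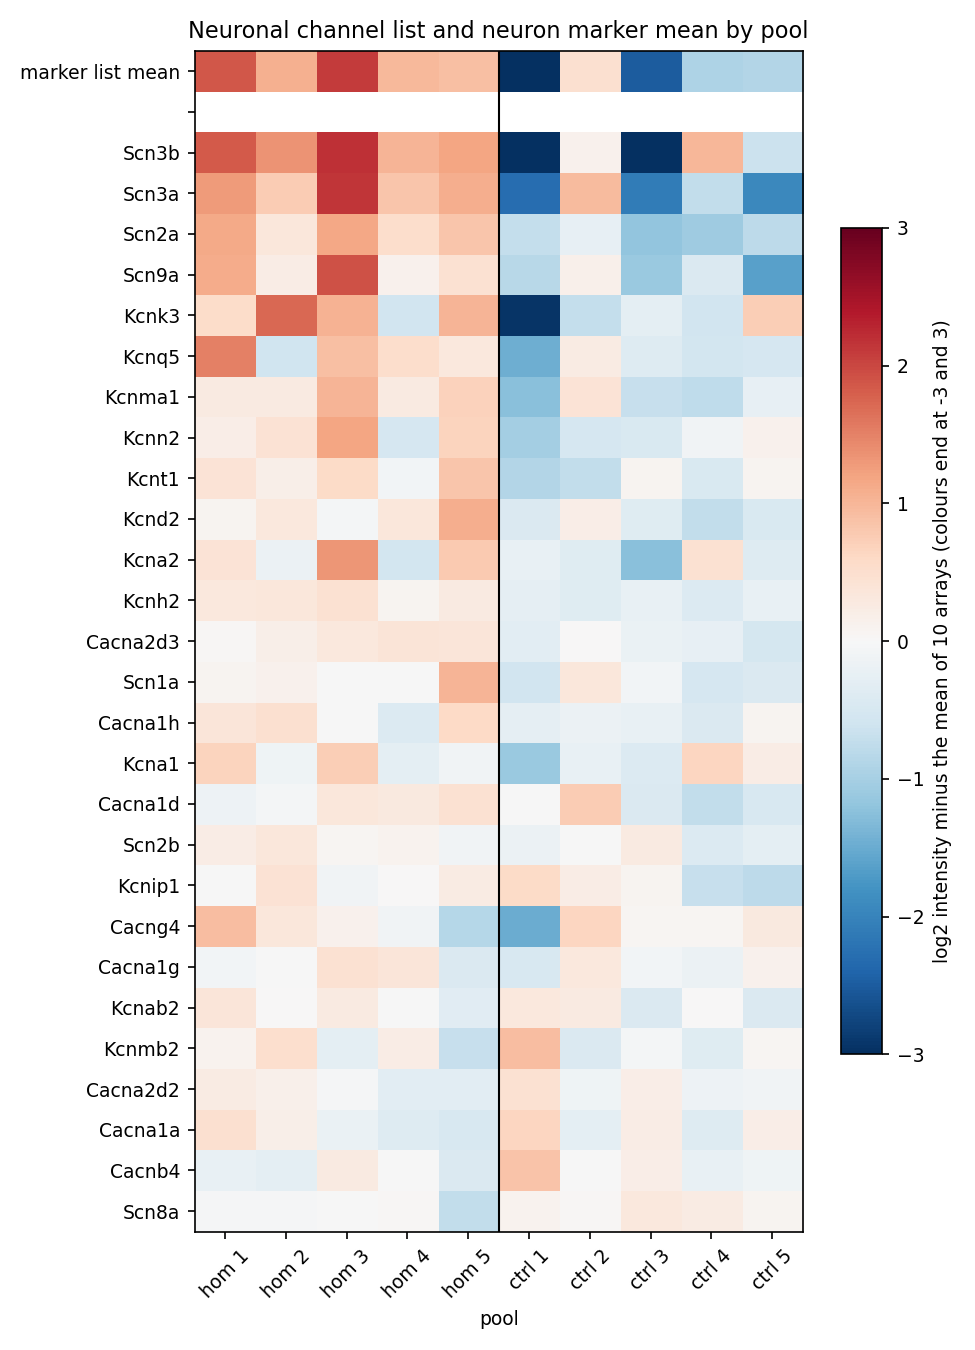
Log2 intensity minus the mean of the 10 arrays (colour, red above and blue below, ending at -3 and 3) for the 27 neuronal channel genes above the floor on all arrays, in rows ordered by their difference, with the neuron and chromaffin marker mean on top. Columns are homozygous pools 1 to 5 and then control pools 1 to 5; control pools 1 and 3 are low for the marker mean, Scn3b and Scn3a, while Scn3b is highest among controls in pool 4 and Scn3a is also low in control pool 5. Kcnh2 is even within each group.

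With the marker mean added to the fit as a covariate, the differences changed by unlike amounts. The remaining difference was 0.14 for Scn3a, 0.04 for Cacna1b, -0.06 for Kcnq3 and -0.75 for Scn3b, compared with 2.44, 2.16, 2.79 and 3.03 without the covariate. It was 0.61 for Kcnh2 and 1.29 for Kcnc4, compared with 0.59 and 1.50, and 1.06 for Scn2a and 0.76 for Cacng5, compared with 1.60 and 1.57. Because the marker mean was above 9.8 in every homozygous pool and below 9.5 in every control pool, it largely carries the genotype with it. This fit therefore cannot sort channel genes into those that follow the markers and those that do not. In it 0 of 18193 genes passed, 7 members had an unadjusted p under 0.05 in limma, and the adjusted p of each of the 4 genes was 0.562. With the mean of 11 skeletal muscle markers as a covariate 0 members passed as well, against 0.0275% of all genes, with 28 members at an unadjusted p under 0.05 in limma. The differences of Scn2a, Kcnc4, Kcnh2 and Cacng5 were then 1.58, 1.31, 0.60 and 1.39. The skeletal muscle mean ranged from 8.14 to 11.35 in homozygous pools and from 5.34 to 11.64 in control pools. The share of all genes at an unadjusted p under 0.05 was not counted in either covariate fit.

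Genes that assemble, traffic or regulate channels, outside the naming rule, were described from a list of 42, of which 38 were measured. Ryr2, a calcium release channel of heart and neurons, rose by 2.72 ± 0.51 on the log2 scale (SE; limma, adjusted p = 0.0485), and the other 37 did not pass. Their differences were positive in 34 cases and negative in 3, with a median of 0.59. Unc80, a subunit of the sodium leak channel complex, differed by 1.68 and the axonal adhesion gene Cntn1 by 1.20 (limma, adjusted p = 0.0758 and 0.0612). The list mean was 7.31 to 7.78 in homozygous pools and 6.44 to 7.22 in control pools.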

How the data were processed

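The values deposited by the authors are linear intensities, 1 for each probe set on each of 10 arrays of urogenital systems at embryonic day 15.5. The mean without the highest and lowest 2% of values was 500 on every array, as global scaling leaves it; the summarization software is not given in the sources used here. Groups follow the genotype labels; the series design text describes another tissue and allele. Nothing in the labels says that pools share no litter, so that p-values reflect only how much these pools vary. Of 45101 probe sets, 64 controls were left out; 34945 had 1 symbol in the platform annotation given with the series, 932 several and 9160 none. Intensities under 16 were set to 16 and taken to log2. Genotypes were compared over 18193 genes with limma 3.58.1 in R 4.3.3 (lmFit, eBayes with intensity trend), two-sided, Benjamini-Hochberg adjusted p under 0.05. On simulated data over 18193 genes the fit called 55 of 100 genes changed by 1, 74 of 100 genes changed by 2 (log2) and 10 of 17993 unchanged genes. The simulated noise was normal and independent for each gene and array, with no floor and no variation shared within a pool. These rates therefore need not hold for the real pools. Members, families and lists were chosen with earlier results of these data known, so lists are described by counts and medians. Coordinates and upstream sequences are from RefSeq, GRCm38.p6. Genes named are those past the threshold and, per family, the 3 with the smallest p and the 1 with the smallest difference among genes above the floor throughout, and per list the 3 with the smallest p; Kcnj1, Kcnj2, Kcnn3, Wt1, Ret, Xist, Tubb3, Prph, Isl1 and Elavl3 were named after their values were seen. Alternatives concerned probe set choice, filters, normalization, floor, variance model, array weights, replicate number, title ending, RNA integrity, Xist, marker levels and each pool left out.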

Additional observations from a re-analysis of the deposited data

Results flagged for a closer look

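Single pools stood apart from the other 4 of their group in 14 of the 156 sets of 5 pools examined (named members, family means and list means, in each group), by Dixon's test at the 95% level; chance flags about 1 in 20. In homozygous pool 5, the pool with the highest actin ratio, Scn8a was at 7.28 (7.99 to 8.06 in the other 4), Kcnq1ot1 at 9.67 (10.63 to 10.97) and Kcnmb4os2 at 5.35 (6.43 to 6.59), all low, while Kcne4 was high at 9.69 (8.92 to 9.14) and Cacna2d4 was at 4.69 with the other 4 at the floor. Control pool 1, the other pool of high actin ratio, was low in Cacng4 at 6.22 (7.76 to 8.34) and in the mean of the K2P genes at 5.92 (6.36 to 6.41), and high in Kcng2 at 5.54 (4.00 to 4.06). Control pool 2, which had the highest marker mean for neurons among the controls, was high in Kcnip4 at 6.04 (4.00 to 4.40) and low in Kcnj16 at 7.29 (8.23 to 8.56). Homozygous pool 4 was low in Cacng2 at 4.69 (5.94 to 6.30) and homozygous pool 3 in the mean of the inward rectifier genes at 5.76 (5.96 to 6.01). Kcnmb4os1 was at 4.72 in homozygous pool 2 and at the floor in the other 4, and the proximal tubule marker mean was 9.52 in control pool 3 (9.06 to 9.17).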

How the results depend on the processing

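Of 118 channel genes 4 passed the threshold and 7 had groups that did not overlap. The number past the threshold was 13 with the title ending as a covariate (11.0% of members, against 14.4% of all genes), 14 with array weights (11.9% against 5.23%) and 2 when every probe set was tested by itself (0.8% against 0.231% of all probe sets). The titles of homozygous pools 1 to 4 alone end in CHP, so this covariate is tied to genotype; of the 13 genes 6 were lower, and Scn2a alone was among the 4. The number past the threshold was 0 with the dimmest 60% of genes left out, with the replicate block, without both arrays of high actin ratio, without the pools of high Xist level, and with the Xist level or the neuron or skeletal muscle marker mean as a covariate. Of all genes tested, 1.48%, 0.0055%, 0.126%, 0.154%, 0.0715%, 0% and 0.0275% passed in these fits, in that order. In these 7 limma fits 3 (of 11 tested), 28, 30, 20, 23, 7 and 28 members had an unadjusted p under 0.05. The share of all genes at that cutoff was not counted in these fits, so these counts do not show an excess of members. Each replicate number holds 1 pool of each genotype, so the replicate block cannot change a difference. With it the adjusted p in limma was 0.314 for Scn2a, Kcnc4 and Kcnh2 and 0.327 for Cacng5. With the Xist level as a covariate the differences of Scn2a, Kcnc4, Kcnh2 and Cacng5 were 1.55, 1.71, 0.63 and 1.54. Leaving out each pool gave 0 to 12, at most 10.2% of members, against 0.0165% to 2.28% of all genes. The number past the threshold stayed within 3 to 6 under the other alternatives run. These are 2.54% to 5.08% of members, against 0.517% to 2.69% of all genes. The number of genes whose groups did not overlap was 1 with the dimmest 60% left out (none of the 4 genes was then tested), 14 without both arrays of high actin ratio (11.9% of members, against 11.0% of all genes), 33 without the pools of high Xist level (28.0% against 14.5%) and 13 for probe sets by themselves (5.2% against 3.29%). With each pool left out it was 7 to 23, or 5.93% to 19.5% of members, against 5.12% to 8.72% of all genes. Some of these shares were near or below that of all genes, as with 7.63% against 8.72% without control pool 1. The cause of these changes was not tested. The labels do not say that the numbers in the titles pair the pools. Correlations of same-numbered pools' deviations from their group means ran from -0.553 to -0.172. After such centring a negative value leaves a higher one with some other control pool, so this check cannot decide whether pools are paired. No named member reversed direction while past the threshold. Among 1437 values of 53 named members, 34 gained the threshold and 61 lost it. All 61 losses fell on the 4 genes, since no other gene had it to lose. Scn2a kept it in 11 of 17 other ways of processing and in 3 of the 10 fits that left out a pool. These counts were 9 and 3 for Kcnc4, 9 and 2 for Cacng5 and 7 and 3 for Kcnh2. Of 386 family medians, 35 moved by more than the spread between pools. Probe sets near the floor carry mostly background, which limits the genes at the floor on some or all arrays.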
